A study of Mus musculus with 23 samples.

Results

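The genes described here are 77 odorant receptors of the mouse that were taken by gene symbol, from Olfr464 up to Olfr541 and from Olfr693 up to Olfr716, with pseudogene symbols and 3 further symbols left out by the rule. They were measured among 1102 receptor symbols without a pseudogene mark and 23481 gene symbols in all. The samples were 23 RNA-seq libraries from the olfactory epithelium of c57BL/6 mice at postnatal day 21. Ribosomes and their RNA were precipitated through the phosphorylated form of ribosomal protein S6 (pS6), a mark that ribosomes gain in a neuron after it has been active. The mice had been exposed for 1 h to acetophenone, to TMT (trimethylthiazoline, a compound from fox secretions) or to the control condition, which the labels do not describe further. For acetophenone there were 5 control libraries (litters 1 to 5), 3 libraries at 1% (litters 3 to 5) and 3 at 100% (litters 1 to 3). For TMT there were 4 libraries each of control, 1% and 100% (litters 1 to 4). The labels name no genotype and no transgene, and they do not say how many animals a library holds. Each library is a pull-down from a whole tissue, so more active neurons of a kind and more receptor RNA per active neuron cannot be told apart.

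Odorant receptors are membrane proteins coupled to the G protein Golf, which raises cyclic AMP in the cilia of olfactory neurons and so opens a cation channel. A mature neuron transcribes 1 receptor gene from 1 allele, and the RNA of a receptor therefore stands for the neurons that carry it. Mouse receptors fall into class I, which lies in a cluster on chromosome 7, and the larger class II, which is spread over many chromosomes and lies on both sides of the class I cluster on chromosome 7. Receptors named MOR followed by a family number are grouped by protein sequence.

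The symbols were checked against the annotation (RefSeq, GRCm38.p6, the same coordinates as mm10). Of the 77 receptors, 73 were class II genes on chromosome 7. Olfr464 (family MOR240) was on chromosome 11 (chr11:87913920-87915003) and Olfr466 (family MOR209) was on chromosome 13 (chr13:65152226-65153152). Olfr503 (MOR34) and Olfr504 (MOR40) carry class I family names. Their translated coding sequences shared 93.5% and 92.5% of residues with the class I receptors Olfr658 and Olfr657, but 32.4% and 36.0% at most with any class II receptor of the set. For the other 75 receptors the closest class I protein shared 33.2 to 39.1% of residues and the closest class II protein of the set 43.6 to 95.9%. The genes lay in 4 blocks on chromosome 7. Block A was the pair Olfr520 and Olfr521, block B held 20 genes from Olfr693 to Olfr716, block C held 41 from Olfr467 to Olfr519, and block D held 12 from Olfr522 to Olfr541. The largest families were MOR204 with 30 members and MOR283 with 12.

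The counts used here were read as those of uniquely aligned reads, which leaves out part of the RNA of similar receptors. For single receptors they made up between 0 and 100% of the estimated counts, in which reads with more than 1 alignment are included. The coding sequences of Olfr711, Olfr481, Olfr522 and Olfr702 shared no stretch longer than 35 bases with another receptor, and their unique counts equalled their estimated counts. Among the 30 receptors with a shared stretch of over 100 bases, the median unique share was 38.2% and the highest was 64.2%. Among the 33 with a longest shared stretch of 51 to 100 bases, the median was 61.8%. Among the 13 with at most 50 shared bases and any count it was 100%. Olfr715 (13.6%) and Olfr707 (11.9%) had few unique reads although their longest shared coding stretches were 25 and 52 bases. The pair Olfr533 and Olfr530 (family MOR252) shared 164 bases without a difference, and 34.7% and 34.5% of their estimated counts were unique. The end of that stretch and the bases after it are shown for these receptors, read from the GENCODE M21 coding sequences at chr7:140466580-140466669 on the plus strand for Olfr533 and chr7:140373142-140373231 on the minus strand for Olfr530, with capitals where Olfr530 differs:
Olfr533: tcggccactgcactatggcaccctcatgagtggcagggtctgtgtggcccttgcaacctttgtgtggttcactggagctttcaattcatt
Olfr530: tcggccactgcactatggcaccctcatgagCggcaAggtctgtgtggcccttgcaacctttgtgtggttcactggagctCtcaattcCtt
Within these 90 bases the pair differed at 4, and over all 919 aligned bases they differed at 42.

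**Figure D1:**
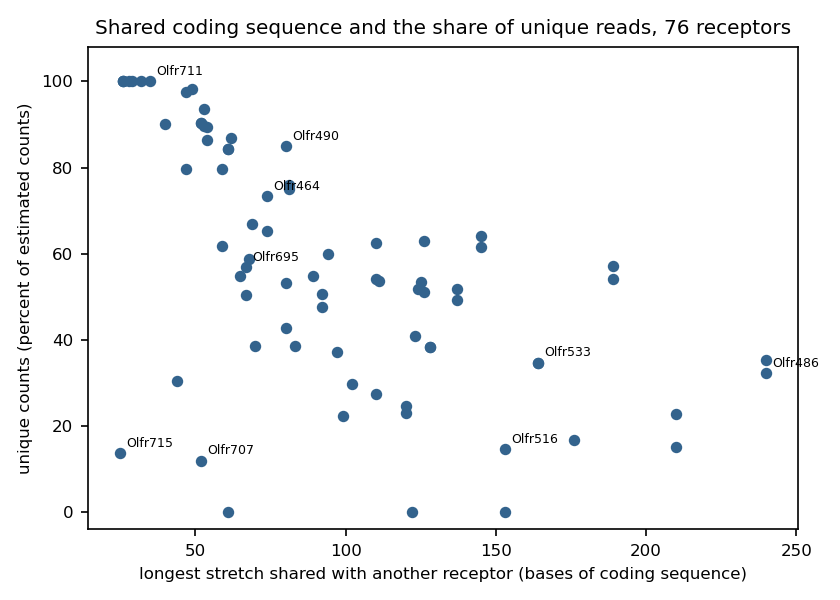
Each point is 1 of 76 receptors with an estimated count: the x axis is the longest stretch of coding sequence, in bases, that it shares exactly with another receptor, and the y axis its unique counts as percent of its estimated counts. Olfr711 sits at 35 bases and 100%, Olfr533 at 164 bases and 34.7%, and Olfr715 and Olfr707 stand apart at short stretches with 13.6% and 11.9%.

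Total unique counts per library ranged from 2118099 to 9526932. The 77 receptors took 112 to 1297 counts of a library, which was 13520 of 182543 receptor counts over all libraries. Libraries of TMT litters 2 to 4 stood apart, with 12 to 40 of the receptors detected (median 19) against 37 to 57 in the acetophenone libraries. Markers of mature olfactory neurons, 8 of 8 detected in every library, summed to 3780 to 7240 CPM (counts scaled to a common library size) in the acetophenone experiment, 3630 to 4130 in TMT litter 1 and 1840 to 4200 in TMT litters 2 to 4. Markers of Bowman glands, 5 of 5 detected in every library and none at 0, summed to 8890 to 37200, 13900 to 39100 and 30300 to 78100 CPM. Markers of sustentacular cells, 5 of 5 detected, summed to 3700 to 7730, 2930 to 3870 and 1650 to 3750 CPM. Their part in the receptor levels was not tested. Levels below are CPM scaled by TMM over all 23 libraries, and an error is the standard deviation (SD) over libraries.

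Counts were concentrated on a few genes. Olfr711 held 17.9% of all counts of the set, and the 5 receptors with the most counts held 44.3%. Of the 77, 73 had at least 1 count in some library, 17 had fewer than 10 over all libraries, and 2 had a count in every library. Coding sequences were 915 to 1026 bases long, so the order per length was close to the order by count. Per kilobase of coding sequence, the mean level over the 9 control libraries was 32.9 CPM for Olfr711, 11.8 for Olfr536, 10.3 for Olfr464, 8.57 for Olfr695, 7.68 for Olfr533, 6.87 for Olfr541, 6.24 for Olfr472 and 6.00 for Olfr481. For Olfr711 (family MOR103, chr7:106971368-106975451, minus strand) the spread over controls was as wide as the level, at 3.40 to 104 CPM in the acetophenone controls and 0 to 0.926 CPM in the TMT controls. The order differed by experiment. Mean levels were 55.4 CPM for Olfr711 and 9.98 CPM for Olfr464 in the acetophenone controls, and 0.397 and 9.21 CPM in the TMT controls. Differences between neighbours in this order were not tested. Olfr474, Olfr504, Olfr513 and Olfr519 had 0 unique counts in every library. A count of 0 (taken to allow 3 counts) allows a level of up to 0.329 to 1.21 CPM, by library. Olfr474, Olfr504 and Olfr519 share stretches of 61, 122 and 153 bases with other receptors and had 1.0, 1.5 and 4.1 estimated counts over all libraries, while Olfr513 had 0 of either kind.

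**Figure D2:**
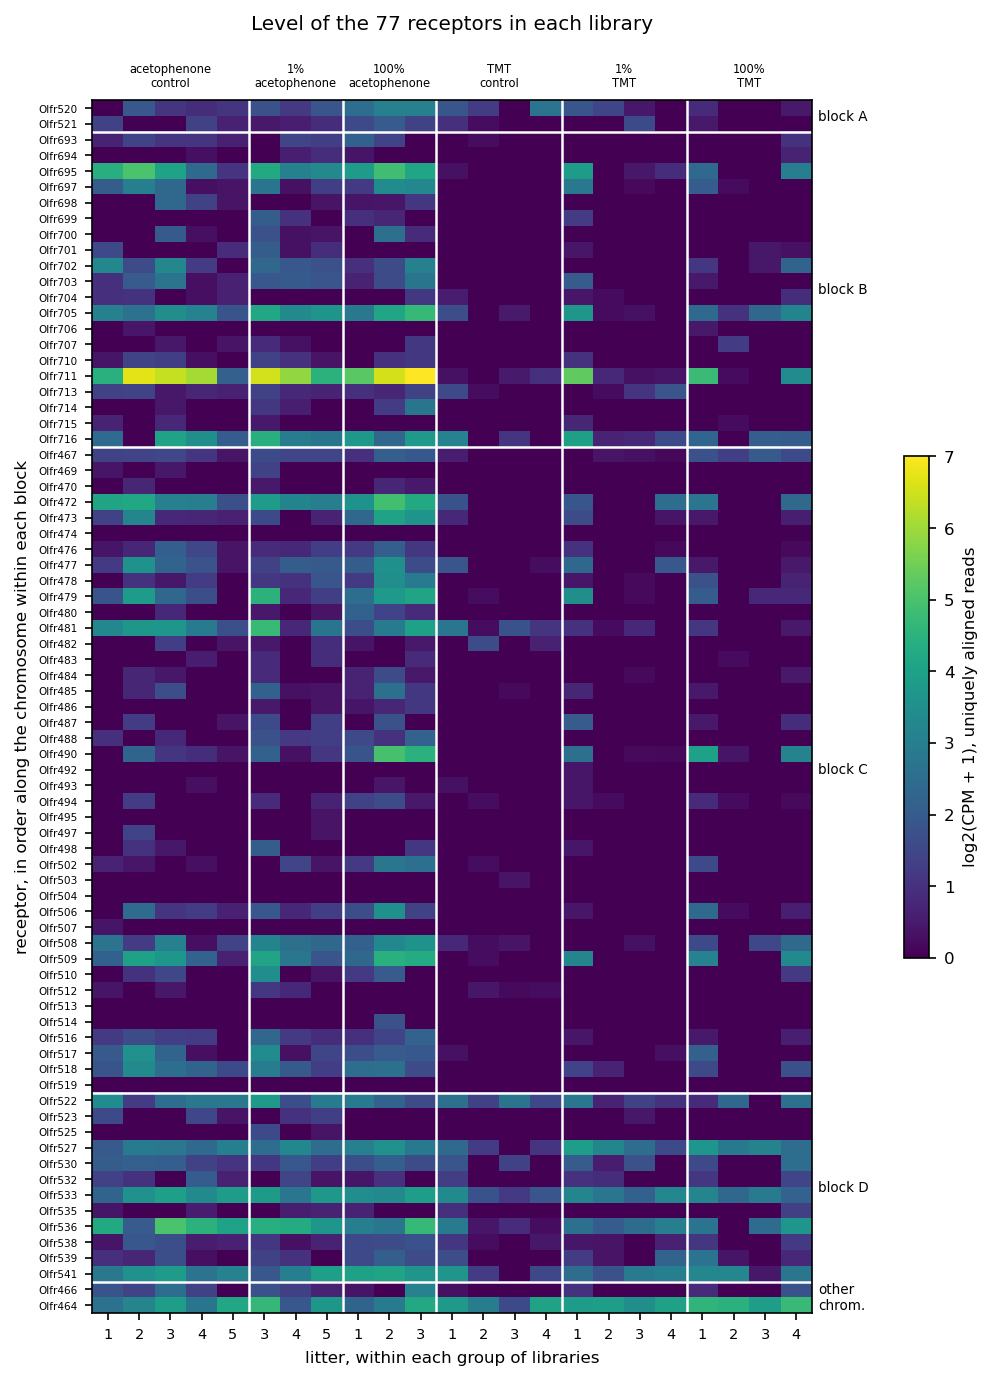
Heat map of log2(CPM + 1) for the 77 receptors (rows, in order along the chromosome within each block) in the 23 libraries (columns, labelled by litter and grouped by exposure). Olfr711 is the brightest row in the acetophenone libraries, and in TMT litters 2 to 4 most rows of blocks B and C are dark while Olfr464, Olfr527 and Olfr533 stay visible.

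The receptors together were more abundant with 100% acetophenone than without it in 3 of 3 litters. Their summed level was 201, 435 and 466 CPM with odor in litters 1 to 3 and 179, 332 and 324 CPM in the controls. The means were 367 ± 145 CPM (SD, n = 3) and 279 ± 85.9 CPM (SD, n = 3). The groups overlapped. The difference of 0.36 on the log2 scale did not exceed the spread between libraries (exact permutation test, 2-sided, p = 0.50, where 3 against 3 libraries cannot go below 0.10). That test ignores the pairing by litter. Flipping signs within litters gave an exact permutation p of 0.25, the lowest that 3 litters allow. Without Olfr711 the difference was 0.38, and it ranged from 0.07 to 0.75 when each library was left out. As a share of all receptor counts the set was lower with odor in 3 of 3 litters, at 8.24, 6.08 and 6.43% against 9.40, 7.02 and 7.59% (difference -1.09 percentage points, exact permutation p = 0.40). For this share the exact sign-flip test within litters also gave p = 0.25. All receptors together stood at 5617 ± 2748 CPM with odor and 3635 ± 1513 CPM in the controls (SD, n = 3 each). With 1% acetophenone the summed level was 408, 185 and 174 CPM in litters 3 to 5 against 324, 193 and 96.5 CPM, higher in 2 of 3 litters (log2 difference 0.37, exact permutation p = 0.60). Without the library at 1% of litter 3 the difference was -0.02, and without the control of litter 5 it was -0.09. The share at 1% was 6.74, 8.33 and 7.36% against 7.59, 8.37 and 8.29%, lower in 3 of 3 litters (difference -0.60 percentage points, exact permutation p = 0.30, exact sign-flip test within litters p = 0.25). The receptors on chromosome 7 alone gave a difference of -0.26 percentage points, with a higher share in 2 of 3 litters. Without Olfr711, and with estimated counts, 1 of 3 litters was higher.

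With TMT the set was higher in all 4 litters at either dose. At 100% the summed level was 166, 49.4, 46.7 and 140 CPM in litters 1 to 4 against 87.1, 19.1, 16.4 and 31.8 CPM in the controls, with means of 100.5 ± 61.6 and 38.6 ± 33.0 CPM (SD, n = 4 each). The log2 difference was 1.48 (exact permutation, 2-sided, p = 0.114; 4 against 4 libraries can reach 0.0286). At 1% the level was 195, 40.7, 40.6 and 59.1 CPM (mean 83.8 ± 74.6, SD, n = 4), and the log2 difference was 1.11 (exact permutation p = 0.229). Litter 1 had the highest level at each exposure, and the groups overlapped. The share of receptor counts was 8.43, 8.68, 8.42 and 7.66% at 100% against 7.41, 7.55, 4.21 and 8.32% in the controls (difference 1.42 percentage points, exact permutation p = 0.0571). The 4.21% of the litter 3 control rests on 116 of 2753 receptor counts (95% Wilson interval 3.52 to 5.03%, counting error only). Without that library the difference in share was 0.54 percentage points (exact permutation p = 0.171), and without the control of litter 4 it was 1.91 (exact permutation p = 0.0286). With signs flipped within litters the exact permutation p was 0.25. Without Olfr711 the difference in share was 1.05 percentage points (exact permutation p = 0.40), with 2 of 4 litters higher. With estimated counts it was 1.445 (exact permutation p = 0.286), with 3 of 4 higher. The receptors on chromosome 7 alone gave 1.25 (exact permutation p = 0.171), with 4 of 4 higher. At 1% the share was 7.55, 8.78, 7.90 and 7.98% (difference 1.18 percentage points, exact permutation p = 0.257). Class I receptors of chromosome 7, a list of 115 symbols, stood at 97.1 ± 52.0 CPM with 100% TMT and 68.8 ± 76.5 CPM in the controls (SD, n = 4 each), and took 8.53% of receptor counts against 10.6%. That comparison of the classes was not tested.

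**Figure D3:**
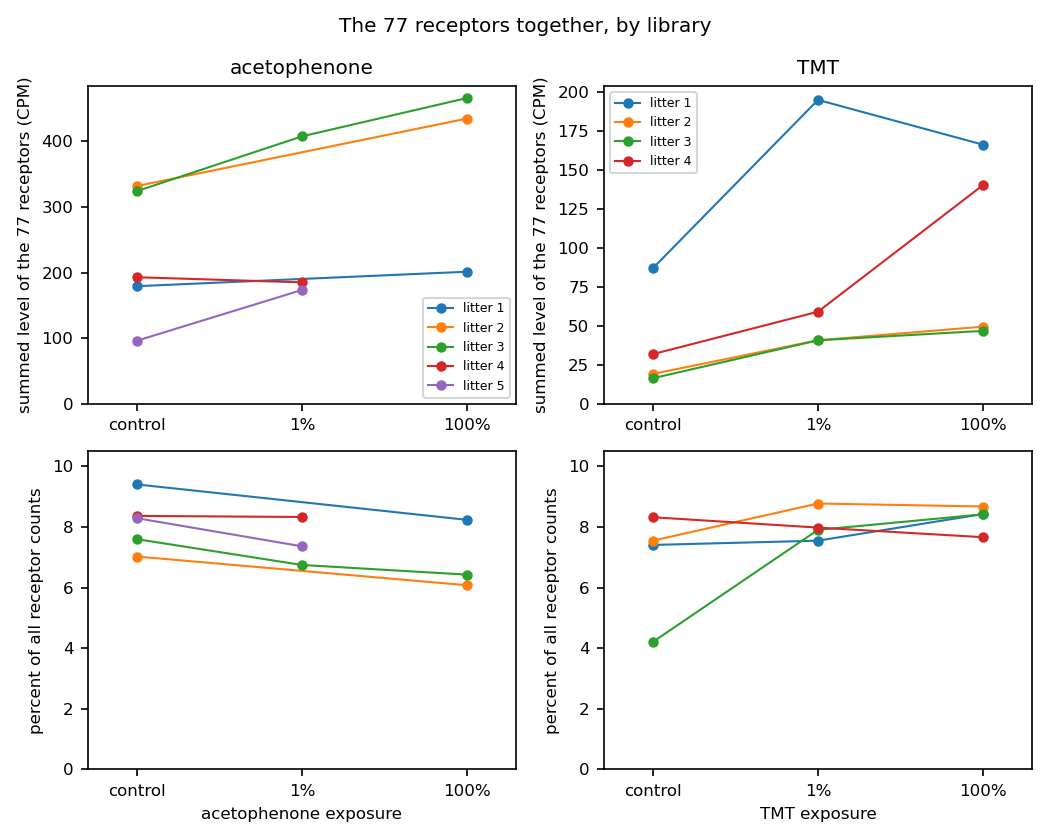
Summed level in CPM (top) and percent of all receptor counts (bottom) of the 77 receptors, with 1 point per library and a line joining the libraries of a litter; litters 1 and 2 of the acetophenone experiment have no library at 1%. In the TMT experiment every odor library lies above the control of its litter in level (166 against 87.1 CPM in litter 1 at 100%), and in the acetophenone experiment every odor library lies below it in share.

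No receptor of the set passed an adjusted p of 0.05 for 100% acetophenone in edgeR's quasi-likelihood test. Of the 77, 22 passed the filter on low counts and were tested, and 0 were called, as for 0% of the 11564 genes tested. At an unadjusted p under 0.05 there was 1 (0.527% of all genes). With litter as a block 0 of 22 were called, against 0.0951% of genes, and DESeq2 called 0 of 69 against 0.0270% of genes. The median log2 fold change of the 22 was 0.43, with 15 above 0, beside -0.01 over all genes tested and 0.41 over the receptors outside the set and class I (186 of 261 above 0). With libraries scaled to their receptor counts, which moved the median of all genes to -0.49, the median of the 22 was -0.20 and 8 were above 0. In every litter 5 of the 22 were higher with odor (15.4% of all genes were) and 1 was lower (12.7% of all genes).

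Olfr490 had the smallest p. This receptor of family MOR204 lies in block C (chr7:108286180-108287124, minus strand), with its whole coding sequence in 1 exon. With 100% acetophenone it had 8, 91 and 53 counts in litters 1 to 3, and in the controls of these litters 0, 11 and 3. Its level was 18.2 ± 14.3 CPM against 1.62 ± 1.93 CPM (SD, n = 3 each). Litters 2 and 3 carried most of the odor counts, and the odor library of litter 1 (2.54 CPM) lay below the control of litter 2 (3.76 CPM), so the groups overlapped. On the log2 scale the difference was 3.45 (SE 1.26, edgeR adjusted p = 1.00). With the litter block it was 3.62 (SE 0.61, edgeR adjusted p = 0.120). Without litter 1 the blocked fit gave 3.45 (edgeR adjusted p = 0.0352), without litter 3 it gave 3.30 (adjusted p = 0.957), and without litter 2 Olfr490 did not enter the test. With the block and all litters it passed in DESeq2 (3.80, adjusted p = 0.00603), and in edgeR without the filter on low counts (3.61, adjusted p = 1.20e-05). With a GC correction beside the block it was 3.40 (edgeR adjusted p = 0.168). At 1% acetophenone Olfr490 had 9, 1 and 4 counts in litters 3 to 5 against 3, 4 and 1, and did not enter the test.

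The coding sequence of Olfr490 was set beside those of its 3 closest proteins in the set, because unique counts can tell these genes apart only where they differ. Olfr484 and Olfr502 shared 84.7% of residues with it and Olfr483 shared 83.4%. All 4 belong to family MOR204. The 90 coding bases in which Olfr490 and Olfr484 differ most are given for the 4 genes, with capitals where a base differs from Olfr490. They are coding bases 224 to 313 of each gene, at chr7:108286812-108286901, chr7:108124949-108125038 and chr7:108523636-108523725 on the minus strand and chr7:108103534-108103623 on the plus strand (GENCODE M21, GRCm38):
Olfr490: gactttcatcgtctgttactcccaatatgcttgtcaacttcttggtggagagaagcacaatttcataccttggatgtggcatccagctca
Olfr484: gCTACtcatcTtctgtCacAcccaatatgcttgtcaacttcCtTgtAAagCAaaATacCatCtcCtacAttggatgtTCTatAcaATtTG
Olfr502: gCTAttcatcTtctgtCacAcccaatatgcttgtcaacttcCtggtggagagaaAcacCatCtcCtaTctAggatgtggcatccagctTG
Olfr483: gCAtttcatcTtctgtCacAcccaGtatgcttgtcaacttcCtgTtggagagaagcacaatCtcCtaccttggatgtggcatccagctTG
Olfr484 differed from Olfr490 at 27 of these bases, Olfr502 at 15 and Olfr483 at 12. The longest stretch that Olfr490 shared with any receptor was 80 bases, with Olfr502, and 84.9% of its estimated counts were unique. With 100% acetophenone Olfr502 had 4, 17 and 12 counts against 2, 1 and 0 in the controls, Olfr484 had 2, 6 and 1 against 0, 2 and 1, and Olfr483 had 0, 0 and 2 against 0, 0 and 0. Olfr502 showed more counts in each of the 3 litters, but none of the 3 genes entered the main test. Without the filter on low counts, Olfr502 was higher by 3.40 on the log2 scale (SE 1.26, edgeR adjusted p = 1.00).

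The next smallest p-values for 100% acetophenone belonged to Olfr520, Olfr473 and Olfr705. Olfr520 (family MOR101, block A, chr7:99735145-99736095) had 15, 22 and 18 counts with odor and 0, 8 and 3 in the controls. Its level was 6.47 ± 1.48 CPM against 1.28 ± 1.37 CPM (SD, n = 3 each), and its log2 fold change was 2.32 (SE 1.01, edgeR adjusted p = 1.00). Its close copy Olfr521, which shares a stretch of 145 bases with it, had 6, 9 and 4 counts against 5, 0 and 0. Olfr473 (family MOR204, block C) had 13, 46 and 28 counts against 5, 24 and 2, a log2 difference of 1.54 (SE 0.92, edgeR adjusted p = 1.00). Olfr705 (family MOR283, block B) had 19, 50 and 61 counts against 23, 15 and 27. It was lower than its control in litter 1 and higher in litters 2 and 3, and its log2 fold change was 1.04 (SE 0.63, edgeR adjusted p = 1.00). Olfr527, with 23, 32 and 15 counts against 9, 19 and 16, was at 0.65 (SE 0.56). Olfr711, the most abundant receptor, had 114, 276 and 316 counts against 65, 304 and 226 (log2 0.30, SE 0.65). Its estimate was -0.21 with libraries scaled to their receptor counts and -0.03 with the block and a GC correction.

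At 1% acetophenone 15 of the 77 receptors were tested and 0 were called (0% of 12077 genes). None had an unadjusted p under 0.05 (0.770% of genes), 0 were called with the litter block (0.00828% of genes), and DESeq2 called 0 of 68 (0.00528% of genes). The median log2 fold change was 0.17, with 12 of 15 above 0 (0.29 and 123 of 189 for the remaining receptors), and -0.27 with 5 above 0 after scaling to receptor counts. In every litter 5 were higher (16.0% of genes) and 2 were lower (15.4% of genes). Of all 234 receptors tested, 62 were higher in every litter and 16 were lower. Olfr705 had 43, 36 and 39 counts in litters 3 to 5 against 27, 34 and 9, at 12.4 ± 4.10 against 6.70 ± 3.78 CPM (SD, n = 3 each). It was higher in 3 of 3 litters, by 0.90 on the log2 scale (SE 0.59, edgeR adjusted p = 1.00). Olfr472 had 35, 32 and 24 counts against 20, 31 and 8, Olfr695 had 46, 30 and 30 against 43, 19 and 4, and Olfr508 had 20, 20 and 14 against 20, 1 and 6. Olfr509 (family MOR267) had 41, 23 and 9 counts against 32, 16 and 2. Olfr536 (family MOR252, block D), with 52, 75 and 41 counts against 86, 98 and 54, was lower in 3 of 3 litters, by -0.42 on the log2 scale (SE 0.43, edgeR adjusted p = 1.00).

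**Figure D4:**
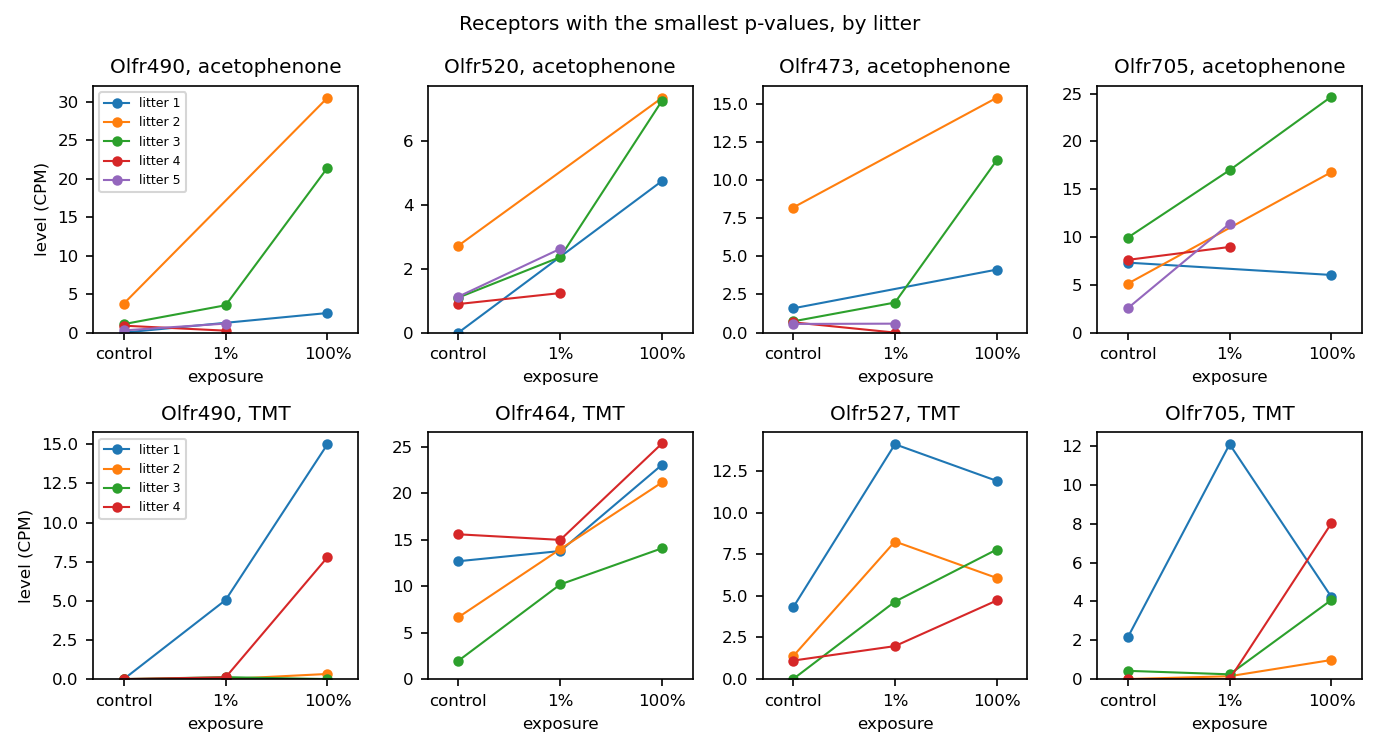
Level in CPM of selected receptors, by exposure, with 1 point per library and lines joining a litter. Each panel has its own axis from 0. The acetophenone panels show the receptors of smallest edgeR p at 100% without the block. The TMT panels show Olfr464, Olfr527, Olfr705 and Olfr490, which did not enter the main test. Olfr520, lower with 100% TMT, has no TMT panel, although its unadjusted edgeR p was smaller than that of Olfr705 (0.0992 against 0.126). Olfr490 reached 30.5 and 21.4 CPM in litters 2 and 3 with 100% acetophenone and 15.0 and 7.78 CPM in litters 1 and 4 with 100% TMT, and Olfr464 was above its control in all 4 litters at 100% TMT.

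For 100% TMT 11 of the 77 receptors were tested and 0 were called by edgeR (0% of 13233 genes). At an unadjusted p under 0.05 there were 2 (14.7% of genes). With the litter block 0 were called, where 2.37% of genes were. DESeq2 called 1 of the 18 receptors that it gave an adjusted p, Olfr490, against 3.74% of genes. The median log2 fold change was 0.79 with 9 of 11 above 0, beside 0.02 over all genes and 1.02 over the remaining receptors (77 of 104 above 0). It was 0.09 with 6 above 0 when libraries were scaled to receptor counts. In every litter 3 were higher (13.2% of genes) and 0 were lower (15.9% of genes). Of all 133 receptors tested, 33 were higher in every litter and 6 were lower. Olfr464 (chromosome 11) had 60, 129, 38 and 199 counts against 53, 39, 14 and 84, at 20.9 ± 4.87 against 9.21 ± 6.08 CPM (SD, n = 4 each). It was higher in 4 of 4 litters, and the lowest odor library (14.1 CPM) lay below the highest control (15.6 CPM). Its log2 fold change was 1.24 (SE 0.51, edgeR adjusted p = 0.288), and 1.44 (SE 0.44, adjusted p = 0.101) with the litter block. Olfr527 (family MOR251, block D, chr7:140335864-140336781) had 31, 37, 21 and 37 counts against 18, 8, 0 and 6, at 7.62 ± 3.13 against 1.69 ± 1.83 CPM (SD, n = 4 each). The odor libraries were at 4.72 to 11.9 CPM and the controls at 0 to 4.30 CPM. Its log2 fold change was 2.23 (SE 0.97, edgeR adjusted p = 0.305) or 2.66 (SE 0.90, adjusted p = 0.132) with the block. Olfr705 had 11, 6, 11 and 63 counts against 9, 0, 3 and 0, and its log2 fold change moved from 2.82 (SE 1.73, edgeR adjusted p = 0.473) to 4.56 (SE 1.59, adjusted p = 0.144) with the block. With the block in DESeq2, Olfr464, Olfr527, Olfr705 and Olfr490 passed (adjusted p = 0.0237, 0.0124, 0.0136 and 0.0127).

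Olfr490 had 39, 2, 0 and 61 counts with 100% TMT and 0 in each of the 4 controls. Litters 1 and 4 held nearly all of these counts. Pooled over the 4 libraries it stood at 5.30 CPM, 39.7-fold higher than the 0.133 CPM that 3 counts over all 4 controls would give. That ratio allows for counting error in the controls only, and not for the spread between litters. By library the level with odor was 15.0, 0.328, 0 and 7.78 CPM. It did not pass the filter of the main test. DESeq2 gave it an adjusted p of 0.0217 without the block, while edgeR without the filter gave an adjusted p of 0.214. At 1% TMT it had 15, 0, 1 and 1 counts, and the library of litter 1 carried 15 of the 17. Olfr711 had 68, 1, 0 and 74 counts at 100% TMT against 1, 0, 3 and 5, and Olfr702 (family MOR260) had 3, 0, 1 and 30 against 0 in every control. Neither passed the filter. Olfr520 had 2, 0, 0 and 3 counts against 11, 8, 0 and 29, a log2 difference of -2.93 (SE 1.66, edgeR adjusted p = 0.432). Olfr536, with 14, 0, 12 and 93 counts against 27, 2, 6 and 1, was higher in 2 of 4 litters. Olfr533, with 21, 25, 17 and 28 counts against 38, 14, 9 and 14, was higher in 3 of 4 litters.

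At 1% TMT 11 receptors were tested and 0 were called (0% of genes), 1 had an unadjusted p under 0.05 (4.29% of genes), 0 were called with the block (0.00756% of genes), and DESeq2 called 0 of 60 (0.0215% of genes). The median log2 fold change was 0.77 with 9 of 11 above 0 (0.60 and 66 of 104 for the remaining receptors), and 0.32 with 8 above 0 after scaling to receptor counts. Olfr527 alone was higher in every litter (8.15% of genes were), and 0 were lower in every litter (8.83% of genes). Of all 133 receptors tested, 15 were higher in every litter and 1 was lower. Olfr527 had 42, 56, 38 and 18 counts at 1%, against 18, 8, 0 and 6 in the controls. Its level was 7.26 ± 5.26 CPM (SD, n = 4), close to that at 100%, and its log2 fold change was 2.13 (SE 0.96, edgeR adjusted p = 0.999). The doses share their controls. Olfr464 had 41, 95, 83 and 137 counts (log2 0.55, SE 0.51), Olfr533 had 24, 39, 29 and 77 (0.77, SE 0.67), Olfr541 had 14, 16, 54 and 65 (0.50, SE 1.11) and Olfr536 had 15, 21, 37 and 63 (1.34, SE 1.21), each with an edgeR adjusted p of 0.999.

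The response to 100% acetophenone minus that to 100% TMT was tested next, with the controls of each experiment subtracted first. Of 25 receptors tested 0 were called by edgeR (0% of 13033 genes), 6 had an unadjusted p under 0.05 (4.83% of genes), 0 were called with the litter block (0.0691% of genes), and DESeq2 called 0 of 40 (0.0726% of genes). The median was -1.76 on the log2 scale, beside -0.06 over all genes, with 6 of 25 above 0. The remaining receptors had nearly the same median, -1.73, with 71 of 293 above 0. For the set the median was -1.84 with receptor scaling. In the fit of the TMT libraries alone, 11 receptors of the set passed the filter on low counts. The others of the 25 entered here without passing it for TMT. Where the TMT controls are near 0, the size of the TMT fold change is poorly bounded, and so is the difference. The size of the median is therefore uncertain. Olfr695 (family MOR283, block B) had the smallest p. It had 43, 84 and 41 counts with acetophenone against 63, 92 and 43, and 11, 0, 0 and 55 with TMT against 1, 0, 0 and 0. The difference was -5.50 (SE 1.80, edgeR adjusted p = 0.932), or -5.13 (SE 1.10, adjusted p = 0.164) with the block. Its 3 closest proteins had few counts: over all 23 libraries Olfr694 had 12, Olfr704 had 23 and Olfr698 had 25. Olfr711 was at -4.10 (SE 1.75, edgeR adjusted p = 1.00), with 1, 0, 3 and 5 counts in the TMT controls. Neither Olfr695 nor Olfr711 passed the filter on low counts in the TMT fit. Olfr520, which passed it, lay the other way, at 5.24 (SE 2.05, edgeR adjusted p = 0.938).

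The make-up of the set in TMT litters 2 to 4 differed from that in the acetophenone libraries. In the acetophenone libraries block B held 14.7 to 50.3% of the set's counts (median 42.3%), block C a median of 28.0% and block D a median of 26.2%. In the 9 libraries of TMT litters 2 to 4, block B held a median of 6.93%, block C 11.9% and block D 46.8%, and Olfr464 alone held a median of 30.2%. In the 3 libraries of TMT litter 1 the medians were 26.2, 21.4 and 26.6%. Among the 50 receptors with at least 20 counts in the acetophenone libraries, the ratio of the pooled level in TMT litters 2 to 4 to that in the acetophenone libraries had a median of 0.12. Choosing receptors by their acetophenone counts favours ratios under 1, so the size of these ratios partly follows from the choice. Receptors with few counts there were left out, such as Olfr503 with 0 acetophenone counts and 2 in TMT litters 2 to 4. Over 685 receptors of any chromosome, chosen by the same minimum, the median ratio was lower, 0.0749, and 1.61% were above 1. Among the 50 the ratio was above 1 for Olfr464 alone (1.39) and under 0.1 for 23 receptors. The median ratio was 0.053 for 14 receptors of block B, 0.060 for 22 of block C and 0.426 for 10 of block D. Olfr711 was at 60.6 CPM in the pooled acetophenone libraries and 1.58 CPM in TMT litters 2 to 4, while Olfr527 was at 6.25 and 3.75 CPM. Blocks B and C, with the low ratios, also had lower median GC in their coding sequences, 46.9% and 44.1%, than block D at 49.5%. The order was not kept throughout. The 2 receptors of block A had a median GC of 54.5% and a median ratio of 0.306, below that of block D. Block B had a higher median GC than block C but a lower median ratio. Across the 50 genes, Spearman's rho between coding GC and this ratio was 0.46, and across 685 receptors of any chromosome it was 0.54. Genes are not independent, share these libraries and differ in family, so these values are a description. Olfr523, at 54.4% GC, had a ratio of 0.0749. Between the acetophenone libraries and TMT litters 2 to 4, litter and experiment cannot be told apart, and the part of GC was not tested.

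**Figure D5:**
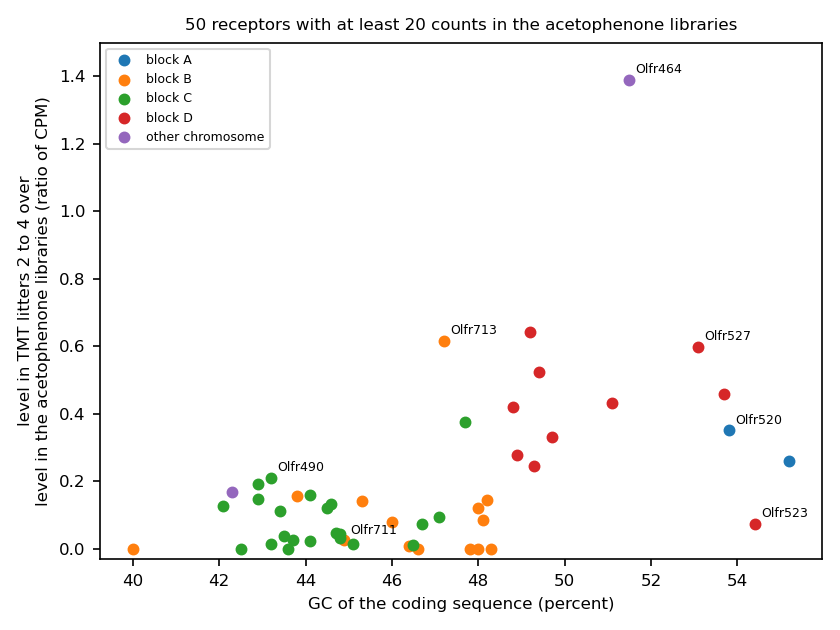
Each point is 1 of 50 receptors, chosen by their counts in the acetophenone libraries, which favours ratios under 1. GC of the coding sequence in percent (x axis) is set against the pooled level in TMT litters 2 to 4 divided by that in the acetophenone libraries (y axis), coloured by block. Block D receptors lie mostly above those of blocks B and C (medians 0.426, 0.053 and 0.060), Olfr464 is highest at 1.39, and Olfr523 lies low at a high GC.

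Other genes of the pathway were taken from fixed lists. None of the 14 transduction genes, 13 genes of receptor trafficking and choice or 13 genes of neuronal activity passed in the fits without the block. With the litter block, Pcdh10, an activity-regulated protocadherin, was higher with 100% acetophenone (45.2, 38.6 and 15.8 CPM in the controls, 194, 179 and 64.7 CPM with odor; log2 2.11, SE 0.20, edgeR adjusted p = 0.00679), and 0 of 7 tested activity genes were lower. With 100% TMT and the block, 2 of 9 activity genes were higher, the early genes Nr4a1 (log2 1.78, SE 0.29, edgeR adjusted p = 0.0213) and Dusp1 (0.83, SE 0.19, adjusted p = 0.0477). In the same fit 1 of 14 transduction genes was higher, the chloride transporter Slc12a2 (3.20, SE 0.47, adjusted p = 0.0143), and 1 of 13 trafficking and choice genes was lower, the homeodomain factor Lhx2 (-0.65, SE 0.15, adjusted p = 0.0496). Class I receptors of chromosome 7 had 0 calls in each of the 4 exposures, with or without the block. Of the 910 remaining receptors, 10 of 261 tested were called with 100% acetophenone and the block, and 10 of 104 with 100% TMT.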

How the data were processed

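Per the labels' protocols, RNA was precipitated with a pS6 antibody, and a Nextera kit turned the amplified cDNA into libraries. Bowtie, bedtools and mm10 are named in the submitters' processing notes, without versions or an annotation. The deposited files have no header and 20 value columns, whose values never decrease across a row. The first deposited value column, whole-number raw counts, was read as uniquely aligned reads and used for all tests. The last deposited column, read as estimated counts including reads with several alignments, was rounded and used as an alternative. The 18 columns between were not used. This reading comes from the values. The receptors and gene lists were chosen with earlier results of these data known. Class I coding entries under 800 bases were left out of the class comparison, after a fragment had given false identities.

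Tests used edgeR 4.0.16 in R 4.3.3 (TMM, filterByExpr with minimum count 10, quasi-likelihood F test, 2-sided, Benjamini-Hochberg over all genes, threshold 0.05). A standard error is the fold change divided by the square root of F. Each acetophenone dose was fitted with its own litters' controls, and TMT in 1 fit of 12 libraries. DESeq2 1.42.0 was an alternative, and genes to which it gave no adjusted p were left out of its counts. On simulated data for 100% acetophenone (11227 genes), 81% of genes changed by 3 on the log2 scale and 0% of those changed by 1.5 were recovered, and 96% and 51% with the litter block. The simulation set the same dispersion and litter spread for every gene and did not estimate them from these libraries. These percents are therefore not the power of the tests for the receptors. Labels give each library's litter, which pairs libraries. Same-litter deviations correlated across genes at 0.58 to 0.89 for acetophenone and 0.01 to 0.37 for TMT. In TMT litter 3 the control of another litter correlated higher, at 0.06 against 0.05 (100%) and 0.15 against 0.04 (1%). The same held for TMT litter 4 at 1%, at 0.08 against 0.01. The labels do not say whether libraries of a litter come from separate animals, so p-values measure the spread between libraries. A count of 0 allows 3 counts, and intervals cover counting error only, since reads carry no molecular identifiers.

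Receptors named were the 5 of smallest p in each exposure with and without the block, the 8 of highest control level per coding length, those at 0 throughout, and the 3 closest proteins of the 2 receptors of smallest blocked p. Others named beside these were chosen after their values were seen. Genes called by the lists were named where they passed.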

Additional observations from a re-analysis of the deposited data

Results flagged for a closer look

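Libraries that lay far from the rest of their group were looked for in 67 sets of 4 or 5 values, and 16 were found by Dixon's test at its 95% level, which compares the gap to the nearest library with the group's range. Chance alone gives about 1 in 20, and many of these sets are near 0 in the other libraries. The summed level of the 77 receptors was 195 CPM in litter 1 at 1% TMT, against 40.6 to 59.1 CPM in the other litters. In the same library Olfr473 stood at 2.02 CPM, Olfr490 at 5.05 CPM, Olfr509 at 8.08 CPM, Olfr695 at 13.8 CPM, Olfr705 at 12.1 CPM and Olfr711 at 38.7 CPM, where the other litters reached at most 0.329, 0.122, 0, 0.878, 0.245 and 0.738 CPM. In the TMT control of litter 1, Olfr472 was at 2.39 CPM, Olfr473 at 0.716 CPM, Olfr533 at 9.07 CPM, Olfr536 at 6.45 CPM, Olfr541 at 11.7 CPM and Olfr695 at 0.239 CPM, against at most 0, 0, 2.59, 0.85, 1.85 and 0 CPM in the other controls. Olfr509 was at 0.171 CPM in the TMT control of litter 2 and Olfr508 at 0.245 CPM in litter 3 at 1% TMT, with 0 in the other litters of each group. Olfr473 was at 8.20 CPM in the acetophenone control of litter 2, against 0.567 to 1.59 CPM.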

How the results depend on the processing

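The count of receptors called stayed at 0 under each alternative run without the litter block in the 5 comparisons, apart from 1 (Olfr490) in DESeq2 for 100% TMT. With the litter as a replicate block in edgeR it was 0 in all 5, and leaving out litter 1 under the block gave 1 (Olfr490) for 100% acetophenone, where leaving out litter 2 or 3 gave 0 (smallest adjusted p = 0.730 and 0.957 in edgeR). Of the alternatives chosen after seeing the data, the block in DESeq2 gave 1 for 100% acetophenone, 4 for 100% TMT, 1 for 1% TMT (Olfr535, lower, with 4 counts in the TMT control of litter 1 and 0 in the other control and 1% libraries) and 2 for the difference of responses. These were Olfr695 and Olfr711, whose log2 fold change was lower for acetophenone than for TMT. Their levels were higher with 100% acetophenone than with 100% TMT, at 19.5 against 2.81 CPM for Olfr695 and 85.5 against 8.94 CPM for Olfr711. Neither Olfr695 nor Olfr711 passed the filter on low counts in the edgeR fit of the TMT libraries. The block without the filter on low counts gave 1 for 100% acetophenone, and the block with GC correction gave 0 in each. The cause was not tested. Leaving out each library gave 0 calls throughout. The summed level ranged on the log2 scale from 0.069 to 0.75 with acetophenone at 100%, -0.085 to 0.79 at 1% (-0.022 without the odor library of litter 3), and 1.17 to 1.99 with TMT at 100% and 0.59 to 1.62 at 1%, when a library was left out. The share ranged from -1.76 to -0.40, -1.03 to -0.24, 0.54 to 1.91 and 0.29 to 1.66 percentage points. The exact sign-flip permutation test within litters (the replicate block) gave p = 0.25 and 0.50 for the acetophenone levels, and 0.125 for each TMT level; 3 litters cannot go below 0.25 and 4 litters cannot go below 0.125. Scaling to receptor counts turned Olfr711 with 100% acetophenone to -0.21, Olfr533 with 100% TMT to -0.17 and Olfr464 with 1% TMT to -0.13. The fit of all 11 acetophenone libraries turned Olfr472 and Olfr695 at 1% to -0.049 and -0.33. Olfr711 turned to -0.15 without the control of litter 1, to -0.17 without the odor library of litter 3, and to -0.027 with the block and GC correction (highest 0.67 when a library was left out). Olfr509 at 1% acetophenone turned to -0.32 without the odor library of litter 3 (highest 1.93), and Olfr705 at 1% TMT to -2.11 without that of litter 1 (highest 4.23). Among 24 named pairs of receptor and comparison, 470 alternatives kept direction and side of the threshold. Receptors with few counts limit every comparison: 11 to 25 of the 77 entered the 5 edgeR tests of the report with the filter on low counts, and at most 70 entered without it.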
